A study of Mus musculus with 24 samples.

Results

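The genes described here copy DNA and supply its building blocks. They are 48 genes chosen by name: 12 of the replicative helicase, 5 of origin licensing and firing, 8 of the polymerases and primase, 11 of the clamp, its loader and the lagging strand, 5 of nucleotide synthesis, 3 for cyclin E and E2F1, and 4 of chromatin assembly and methylation. Each of the 48 names had at least 1 probeset that lists a single gene, so 48 of 48 were found among the 19938 genes tested.

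The study measured total RNA of subcutaneous B16 melanoma tumours in mice on 24 Affymetrix arrays, in 6 groups of 4 biological replicates. B16 is a transplantable mouse melanoma line. Mice of 6 to 12 weeks were injected with 500000 B16 cells, and untreated tumours were taken at day 3 or day 7 with no further agent named. For the untreated arm the labels give no interval from injection to the start of the day count. The age of those tumours beside the treated ones is thus not known. In both treated arms the mice received 5 Gy of total body irradiation 10 to 14 days after tumour injection, together with 100000 pmel-1 CD8+ T cells, whose transgenic receptor recognizes a melanocyte antigen. The T cells were not transduced in the Mock arm and were transduced with IL-12 in the IL-12TD arm, and tumours were taken 3 or 7 days after transfer. IL-12 is a cytokine that drives interferon-gamma production. The labels name no irradiation and no T cells for the untreated arm, no empty vector for the Mock arm, no mouse strain, and no scan date, so day and any batch cannot be told apart. For the later Mock group 1 label field gives day 3 and the others day 7, and it was used as day 7. The tumours were made into single-cell suspensions, so each array holds RNA of tumour cells and of all host cells in the tumour.

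Replication starts when the origin recognition complex, with Cdc6 and Cdt1, loads the Mcm2 to Mcm7 ring onto DNA. Cdc7 kinase, Mcm10, Cdc45 and the GINS proteins then turn the ring into a moving helicase. DNA polymerase alpha and primase lay down primers, polymerases delta and epsilon extend them, and the replication factor C complex loads the sliding clamp Pcna. Fen1 and Lig1 finish the lagging strand, and ribonucleotide reductase, thymidylate synthase, thymidine kinase and dUTPase supply and protect the deoxynucleotide pool. Most of these genes are switched on at the G1/S border by E2F transcription factors, so their RNA is commonly read as a mark of cycling cells.

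Promoter stretches of 6 members are printed because the members are textbook E2F targets and because these 6 span the range of responses in the tumours. RefSeq (GRCm38.p6) gave promoter windows, from 250 bases before to 50 after an annotated start, for 40 of the 48 members. The 4 words searched on both strands were TTTCCCGC, TTTGGCGC, TTTCGCGC and TTTGCCGC, and their matches are in capitals. Mcm2 (chr6:88898781-88898980, minus strand) had the largest day 3 difference of the helicase genes and has no match, while Gins3 (chr8:95633359-95633558, plus strand) had the smallest and holds 1 match. In Mcm5 (chr8:75109268-75109467, plus strand) and Mcm6 (chr1:128359706-128359905, minus strand) a pair of words on opposite strands overlaps by 4 bases. Rfc3 (chr5:151651209-151651408, minus strand) was the only member called higher in IL-12TD than in Mock tumours at day 7, and Cdc7 (chr5:106964115-106964314, plus strand) the only member not called at day 3. Each stretch is given 5′ to 3′ on the gene's strand and ends 0 to 41 bases before the annotated start.
Mcm2: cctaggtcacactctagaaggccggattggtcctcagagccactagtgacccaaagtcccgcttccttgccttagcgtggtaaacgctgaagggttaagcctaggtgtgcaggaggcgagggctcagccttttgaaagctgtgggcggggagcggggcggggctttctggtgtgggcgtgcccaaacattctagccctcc
Gins3: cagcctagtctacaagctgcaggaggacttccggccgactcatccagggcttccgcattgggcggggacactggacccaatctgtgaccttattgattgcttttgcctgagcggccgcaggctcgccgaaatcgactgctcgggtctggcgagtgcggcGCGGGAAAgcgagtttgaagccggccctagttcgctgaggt
Mcm5: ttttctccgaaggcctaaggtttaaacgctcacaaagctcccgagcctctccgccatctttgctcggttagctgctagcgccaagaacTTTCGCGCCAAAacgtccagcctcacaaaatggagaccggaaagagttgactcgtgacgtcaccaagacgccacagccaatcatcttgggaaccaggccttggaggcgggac
Mcm6: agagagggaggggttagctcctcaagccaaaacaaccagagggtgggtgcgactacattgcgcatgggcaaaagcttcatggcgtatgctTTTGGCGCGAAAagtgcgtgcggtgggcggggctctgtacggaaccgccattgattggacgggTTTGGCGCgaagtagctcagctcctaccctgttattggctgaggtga
Rfc3: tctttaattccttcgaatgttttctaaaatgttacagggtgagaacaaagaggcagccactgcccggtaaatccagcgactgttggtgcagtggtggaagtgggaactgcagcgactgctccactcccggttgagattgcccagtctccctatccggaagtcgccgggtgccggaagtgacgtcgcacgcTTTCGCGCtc
Cdc7: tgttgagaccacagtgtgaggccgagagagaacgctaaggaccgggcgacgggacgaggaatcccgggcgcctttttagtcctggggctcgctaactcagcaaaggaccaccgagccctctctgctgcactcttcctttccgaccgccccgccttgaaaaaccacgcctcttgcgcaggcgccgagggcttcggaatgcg

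At least 1 of the 4 words was found in the windows of 15 of the 40 member genes (37.5%), against 3.5% of the 15614 tested genes that have a window. By promoter rather than by gene the shares were 30.6% and 3.0%. CCAAT, the site of NF-Y, was found in either orientation in 60.0% of member genes and 41.7% of tested genes, and the words TTTGAA and TTCGAA of the cell cycle homology region in 22.5% and 19.0%. A match is a spelling in this window and not a measured site. The 15 members with an E2F word had a median log2 difference between IL-12TD and Mock of -1.23 at day 3 and -0.18 at day 7, and the 25 without one had -0.91 and -0.30, with ranges that overlapped on both days.

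Values are log2 intensities made by the authors with RMA, so a difference of 1 is a 2-fold change, and a level is compared between groups for 1 probeset and never between genes. Correlations of arrays within a group ran from 0.962 to 0.992. The interquartile range of an array over the tested genes was 2.58 to 2.88 in untreated and 2.66 to 2.87 in Mock tumours at day 3, 2.08 to 2.33 in IL-12TD tumours at day 3, and 2.15 to 2.53 over the day 7 groups. The IL-12TD day 3 arrays thus had a narrower spread than the other day 3 arrays, whose part in the results was not tested beyond quantile normalization. The members whose call changed after quantile normalization are named with each comparison. Calls are from limma at an adjusted p under 0.05 over all 19938 genes. Melanocyte genes averaged 8.88 to 9.85 on every array over the 15 measured, so the defining genes of the labelled tumour were present on all arrays. The labels name no sort of the cells, and in such bulk RNA fewer cells of a type and less RNA per cell cannot be told apart.

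At day 3 the replication genes were lower in IL-12TD than in Mock tumours almost without exception. Of the 48 members, 47 were called lower and 0 higher, while 25.9% of all genes tested were called lower and 17.3% higher. The median log2 difference over the members was -1.05, beside 0.02 over all genes. A filter on dim genes (above the 40th percentile on at least 4 arrays) kept all 48 members and 13424 genes. Among the genes it kept, 38.9% were called lower and 13.6% higher, with a median of -0.20, so brighter genes were shifted down as well. With that filter 47 members were called lower. For 46 members every IL-12TD array lay below every Mock array, which 25.1% of all genes did. By role the median was -1.13 for the helicase (12 of 12 called lower), -0.85 for origin licensing and firing (4 of 5), -1.31 for the polymerases and primase (8 of 8) and -0.68 for the clamp, loader and lagging strand (11 of 11). It was -1.46 for nucleotide synthesis (5 of 5), -1.06 for cyclin E and E2F1 (3 of 3) and -1.02 for chromatin assembly and methylation (4 of 4). After quantile normalization 43 members were called lower, against 15.9% of all genes, and the median was -0.79, beside -0.02 over all genes. Gins2, Rfc2, Rfc3, Rnaseh2a and Dut lost their call there, and Cdc7 gained one (-0.44, adjusted p = 0.0402).

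**Figure D1:**
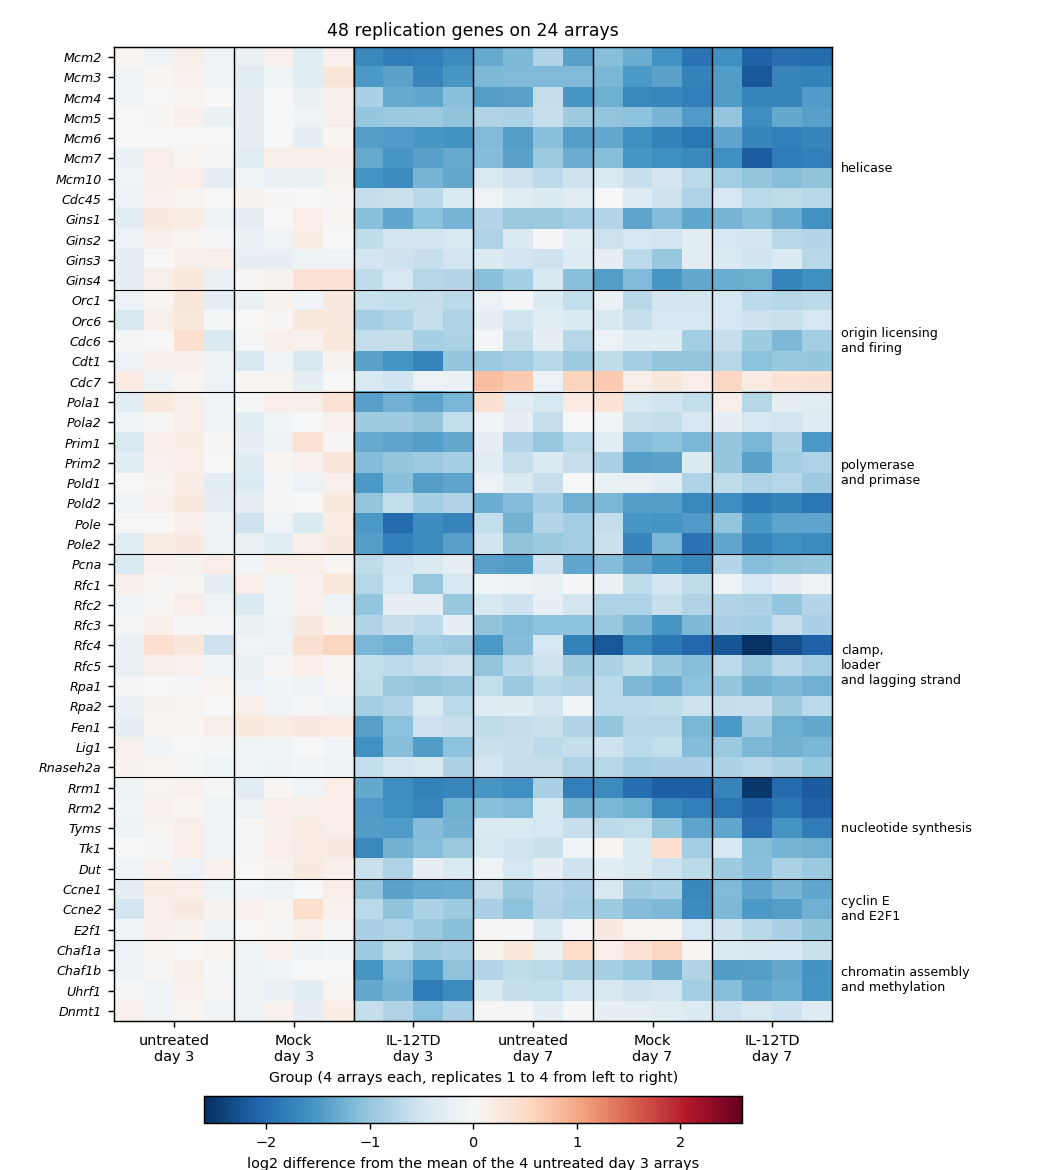
Difference of each array from the mean of the 4 untreated day 3 arrays, in log2 units by colour, for the 48 genes in rows by role and the 24 arrays in columns by group. The IL-12TD day 3 columns are blue for nearly every gene, the Mock day 3 columns are near 0, and at day 7 all arms are blue for most genes. Exceptions at day 7 include Cdc7 in all arms, and Chaf1a and E2f1 in untreated and Mock tumours.

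At day 7 the difference between the treated arms was smaller in size for all 48 members than at day 3, which was not counted over all genes. Of the members, 13 were called lower in IL-12TD than in Mock tumours and 1 was called higher, against 8.83% and 12.9% of all genes (21.7% in either direction). The median over the members was -0.17, beside -0.08 over all genes. The 13 lower members were Mcm2, Mcm10, Cdc6, Pold1, Lig1, Rrm2, Tyms, Tk1, Dut, E2f1, Chaf1a, Chaf1b and Uhrf1, all of them among the 47 lower at day 3, and Rfc3 was higher. All 4 IL-12TD arrays lay below all 4 Mock arrays for 7 members (11.3% of all genes) and above them for 2 members (10.4% of all genes), which were Rfc3 and Pcna. In nucleotide synthesis 4 of 5 genes were lower, with a median of -0.51, and the call of 1 of the 4, Tk1, held for only 1 of its 2 probesets. In chromatin assembly and methylation 3 of 4 were lower, with a median of -0.60. Only 2 of 12 helicase genes, 1 of 8 polymerase genes, 1 of 5 origin genes and 1 of 3 in the cyclin E and E2F1 group were lower, and the clamp group had 1 lower and 1 higher of 11. The count of 14 calls fell to 9 without any one of Mock day 7 replicates 2 and 3 and IL-12TD day 7 replicates 3 and 4. In those settings 15.1% to 16.8% of all genes were called. The count was 20 after quantile normalization, with 19 lower, against 24.4% of all genes called and 12.9% lower. The 6 members called there in addition were Mcm3 (-0.47), Mcm5 (-0.34), Mcm7 (-0.57), Pold2 (-0.55), Ccne1 (-0.50) and Dnmt1 (-0.39). The median ran from -0.24 to -0.09 as single arrays were left out, and was -0.27 after quantile normalization. The value of -0.09 was that without Mock day 7 replicate 1, where 11 members were called, 8 lower and 3 higher (Pcna, Rfc1 and Rfc3). Over all genes 11.8% were lower and 16% higher in that setting (27.7% in either direction). With both directions pooled, members were thus called no more often than all genes. The 8 lower members were a larger share than that over all genes, and the 3 higher a smaller one. Mock day 7 replicate 1 had the highest mean over the members in its group, 6.82 against 6.38 to 6.57 on the others. Under quantile normalization 47.1% of the calls over all genes at day 7 were higher, against 59.4% as deposited.

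**Figure D2:**
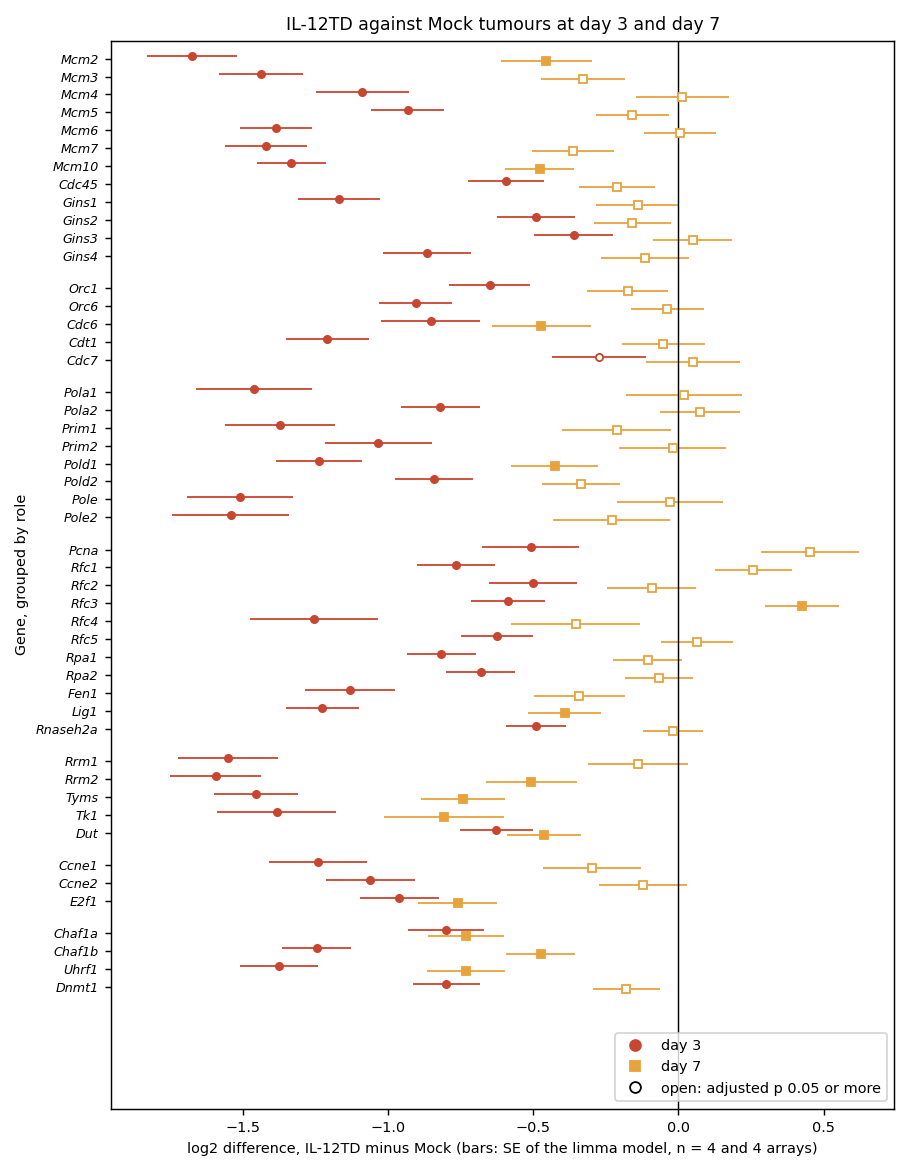
Log2 difference between IL-12TD and Mock tumours for each of the 48 genes, grouped by role, at day 3 (circles) and day 7 (squares), with bars for the standard error of the limma model and open symbols where the adjusted p was 0.05 or more. The day 3 symbols lie between -1.68 and -0.28 and all but Cdc7 are filled, and 14 of the day 7 symbols are filled.

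Among the helicase genes, Mcm2, a subunit of the ring, showed the largest difference of all 48 members. Its level at day 3 was 8.96, 9.24, 8.87 and 9.24 on the Mock arrays and 7.45, 7.31, 7.35 and 7.50 on the IL-12TD arrays. The ranges were more than a log2 unit apart, and the difference was -1.68 (SE 0.16, adjusted p = 4.96e-09), a level 3.20-fold lower. At day 7 the Mock arrays gave 8.03, 7.85, 7.56 and 7.22 and the IL-12TD arrays 7.54, 7.03, 7.15 and 7.12. These ranges overlapped, with 1 IL-12TD array above the lowest Mock array and a difference of -0.46 (SE 0.16, adjusted p = 0.0367). The call was lost without any one of Mock replicates 1 to 3 or IL-12TD replicates 2 to 4 of day 7, at -0.49 to -0.33. Untreated tumours had 9.19, 9.05, 9.28 and 9.02 at day 3 and 7.83, 7.97, 8.35 and 7.72 at day 7, so Mcm2 was already lower at the later day without any treatment, at -1.16 (SE 0.16, adjusted p = 3.3e-06).

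Mcm6, of the same ring, differed at day 3 and gave the smallest helicase difference at day 7. The Mock arrays had 8.50, 8.69, 8.47 and 8.76 at day 3 and the IL-12TD arrays 7.28, 7.24, 7.20 and 7.16, a difference of -1.39 (SE 0.12, adjusted p = 2.43e-09) with no overlap. At day 7 the Mock arrays had 7.37, 7.10, 6.94 and 6.81 and the IL-12TD arrays 7.33, 6.99, 6.93 and 6.99, which overlapped, and the difference was 0.00 (SE 0.12). Mcm6 fell by 1.55 on the log2 scale from day 3 to day 7 in Mock tumours and had a change of -0.16 (adjusted p = 0.324) in IL-12TD tumours. Mcm5, another ring subunit, had 8.16, 8.38, 8.26 and 8.51 on Mock and 7.38, 7.42, 7.43 and 7.34 on IL-12TD arrays at day 3, then 7.36, 7.32, 7.17 and 6.92 on Mock and 7.35, 6.77, 7.05 and 6.97 on IL-12TD arrays at day 7. The arms were apart at day 3, at -0.93, and overlapped at day 7. The other ring subunits gave -1.44 for Mcm3, -1.09 for Mcm4 and -1.42 for Mcm7 at day 3, all called, and -0.33, 0.01 and -0.36 at day 7, none called.

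Mcm10, which helps to open the loaded ring, stayed lower on every array at both days. It had 7.07, 7.01, 7.0 and 7.27 on Mock and 5.65, 5.54, 5.96 and 5.85 on IL-12TD arrays at day 3, and 6.78, 6.57, 6.71 and 6.48 on Mock and 6.27, 6.15, 6.07 and 6.14 on IL-12TD arrays at day 7. The arms did not overlap on either day, with differences of -1.33 (SE 0.12, adjusted p = 2.26e-09) and -0.48 (SE 0.12, adjusted p = 0.00422). Mcm10 rose by 0.41 (adjusted p = 0.00736) between the days in IL-12TD tumours while it fell by 0.45 in Mock tumours.

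Cdc45 and the 4 GINS genes complete the helicase. Cdc45 had 6.45, 6.31, 6.36 and 6.39 on Mock and 5.75, 5.78, 5.64 and 5.96 on IL-12TD arrays at day 3, and 6.37, 6.04, 5.82 and 5.55 on Mock and 5.92, 5.66, 5.71 and 5.65 on IL-12TD arrays at day 7. Its arms were apart at day 3, at -0.60 (SE 0.13), and overlapped at day 7. Gins2 had 6.54, 6.64, 6.90 and 6.72 on Mock and 6.04, 6.23, 6.23 and 6.32 on IL-12TD arrays at day 3, and 6.16, 6.26, 6.21 and 6.44 on Mock and 6.27, 6.22, 5.98 and 5.96 on IL-12TD arrays at day 7. Its day 3 difference of -0.49 (SE 0.13, adjusted p = 0.00442) became -0.21 and was no longer called after quantile normalization. Gins3 gave the smallest helicase difference at day 3, with 5.31, 5.31, 5.39 and 5.39 on Mock and 5.03, 4.97, 4.93 and 5.02 on IL-12TD arrays, and had 5.31, 4.82, 4.53 and 5.23 on Mock and 5.14, 5.0, 5.14 and 4.81 on IL-12TD arrays at day 7. The day 3 arrays did not overlap, but the difference of -0.36 (SE 0.14, adjusted p = 0.0348) lost its call without Mock replicate 1, 3 or 4 or without IL-12TD replicate 2 or 3 of day 3, at -0.37 to -0.34. Gins1 and Gins4 were lower at day 3, with differences of -1.17 and -0.87, and were not called at day 7.

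Of the origin genes, Cdt1, which loads the ring together with Cdc6, differed most at day 3. It had 6.78, 7.10, 6.79 and 7.29 on Mock and 5.80, 5.66, 5.47 and 6.19 on IL-12TD arrays, and 6.54, 6.33, 6.17 and 6.18 on Mock and 6.47, 6.13, 6.22 and 6.20 on IL-12TD arrays at day 7. The arms were apart at day 3, at -1.21 (SE 0.14, adjusted p = 2.69e-07), and at day 7 their ranges nearly coincided, with a difference of -0.05 (SE 0.14). Cdc6 had 6.11, 6.30, 6.27 and 6.43 on Mock and 5.53, 5.53, 5.29 and 5.33 on IL-12TD arrays at day 3 and 6.01, 5.82, 5.84 and 5.25 on Mock and 5.55, 5.24, 4.99 and 5.24 on IL-12TD arrays at day 7. The day 3 arms were apart (-0.85). The day 7 call, at -0.47 (SE 0.17, adjusted p = 0.0479), was lost without any one of Mock replicates 1 to 3 or IL-12TD replicates 2 to 4 of that day, with differences of -0.47 to -0.38.

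Orc1, the ATPase subunit of the origin recognition complex that is made in a cell-cycle dependent way, was called lower at day 3 and not at day 7. It had 4.79, 5.05, 4.90 and 5.19 on Mock and 4.39, 4.33, 4.35 and 4.26 on IL-12TD arrays, a difference of -0.65 (SE 0.14), and 4.79, 4.24, 4.46 and 4.49 on Mock and 4.50, 4.29, 4.22 and 4.26 on IL-12TD arrays at day 7, with overlap. Orc6, another subunit, had 6.81, 6.85, 7.10 and 7.05 on Mock and 5.92, 6.03, 6.23 and 6.0 on IL-12TD arrays at day 3 and 6.41, 6.22, 6.39 and 6.39 on Mock and 6.37, 6.27, 6.23 and 6.37 on IL-12TD arrays at day 7. Its arms were apart at day 3, at -0.91, and had a difference of -0.04 at day 7.

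Cdc7, the kinase that fires licensed origins, was the exception among the members in the deposited values. It had 5.03, 4.69, 4.89 and 4.66 on untreated, 4.86, 4.88, 4.58 and 4.81 on Mock and 4.42, 4.30, 4.67 and 4.65 on IL-12TD arrays at day 3. The IL-12TD values reached into both other groups, and the difference from Mock was -0.28 (SE 0.16, adjusted p = 0.168). After quantile normalization Cdc7 was called lower at day 3 against both Mock and untreated tumours. At day 7 it had 5.60, 5.50, 4.65 and 5.40 on untreated, 5.49, 4.96, 5.11 and 4.99 on Mock and 5.35, 5.02, 5.17 and 5.21 on IL-12TD arrays. Every group mean was higher at day 7 than at day 3, by 0.47 (SE 0.16, adjusted p = 0.0233) in untreated, 0.36 (SE 0.16, adjusted p = 0.0674) in Mock and 0.68 (SE 0.16, adjusted p = 0.00131) in IL-12TD tumours. The rise was called in untreated and IL-12TD tumours, and in untreated tumours it lost its call after quantile normalization (0.41), with the compared groups alone (0.47), and without replicate 2 or 4 of day 3 or replicate 1, 2 or 4 of day 7, at 0.37 to 0.44.

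The polymerase and primase genes were lower at day 3 as a group, with all 8 called lower, against 25.9% of all genes. Pole, the catalytic subunit of the leading strand polymerase epsilon, had 6.53, 6.97, 6.69 and 7.29 on Mock and 5.58, 5.08, 5.45 and 5.33 on IL-12TD arrays at day 3. The nearest arrays of the arms were almost a log2 unit apart, and the difference was -1.51 (SE 0.18, adjusted p = 3.55e-07). At day 7 it had 6.45, 5.56, 5.53 and 5.60 on Mock and 6.05, 5.56, 5.70 and 5.71 on IL-12TD arrays, where Mock replicate 1 stood above all other arrays and the difference was -0.03 (SE 0.18). Pole2, another subunit of it, gave the largest polymerase difference, with 6.58, 6.49, 6.94 and 7.01 on Mock and 5.34, 5.01, 5.12 and 5.37 on IL-12TD arrays at day 3 (-1.54) and 6.20, 5.07, 5.61 and 4.86 on Mock and 5.43, 5.06, 5.19 and 5.14 on IL-12TD arrays at day 7 (-0.23, not called). Both epsilon genes thus separated the arms at day 3 and overlapped at day 7.

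Pola1, the catalytic subunit of polymerase alpha, showed the largest rise between days within the IL-12TD arm. It had 6.47, 6.70, 6.67 and 6.89 on Mock and 5.10, 5.28, 5.15 and 5.33 on IL-12TD arrays at day 3, and 6.87, 6.10, 6.01 and 5.87 on Mock and 6.67, 5.78, 6.26 and 6.22 on IL-12TD arrays at day 7. The arms were over a log2 unit apart at day 3, at -1.46 (SE 0.20, adjusted p = 2.22e-06), and overlapped at day 7 (0.02, SE 0.20). All 4 IL-12TD arrays were higher at day 7 than at day 3, and the rise was 1.02 (SE 0.20, adjusted p = 1.89e-04). Pola2, the accessory subunit, showed the smallest day 3 difference of the polymerase genes. It had 6.30, 6.52, 6.58 and 6.70 on Mock and 5.66, 5.63, 5.57 and 5.95 on IL-12TD arrays at day 3 and 6.50, 6.02, 5.97 and 6.13 on Mock and 6.38, 6.16, 6.12 and 6.26 on IL-12TD arrays at day 7. The arms were apart at day 3, at -0.82, and overlapped at day 7, at 0.07.

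Pold1, the catalytic subunit of polymerase delta, was the single polymerase gene called lower at day 7. It had 6.88, 7.17, 7.08 and 7.34 on Mock and 5.73, 6.14, 5.79 and 5.85 on IL-12TD arrays at day 3, and 7.06, 7.04, 6.95 and 6.43 on Mock and 6.57, 6.42, 6.48 and 6.29 on IL-12TD arrays at day 7. The day 3 difference was -1.24. The day 7 difference was -0.43 (SE 0.15, adjusted p = 0.0414), with Mock replicate 4 below 2 of the IL-12TD arrays, and it lost its call without any one array of that day other than Mock replicate 4, at -0.47 to -0.36. Prim1, Prim2 and Pold2 had day 3 differences of -1.37, -1.04 and -0.84 and none was called at day 7.

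The clamp, loader and lagging strand genes had the smallest median of the roles at day 3 and the only member called higher at day 7. Pcna, the sliding clamp, had 10.19, 10.41, 10.42 and 10.33 on Mock and 9.61, 9.79, 9.88 and 10.03 on IL-12TD arrays at day 3. All IL-12TD values were lower, at -0.51 (SE 0.17, adjusted p = 0.0167), and the call was lost without IL-12TD day 3 replicate 1 (-0.44). At day 7 Pcna had 9.14, 8.89, 8.70 and 8.57 on Mock and 9.50, 9.14, 9.21 and 9.25 on IL-12TD arrays. On neither day did the arms overlap, and the day 7 difference of 0.45 (SE 0.17, adjusted p = 0.0543) was not called. It was called, at 0.40 to 0.56, under 6 of the alternatives: without dim genes, with array weights, with the compared groups alone, with the mean of its probesets, without Mock day 7 replicate 1, and without that array and untreated day 7 replicate 3. A second, dimmer Pcna probeset gave -0.87 at day 3 and 0.35 at day 7, in the same directions and with the same calls. The second probeset is numbered among probesets of genes on chromosome 19 and the first among those of chromosome 2, where Pcna lies.

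Rfc3, a small subunit of the clamp loader, changed sign with both differences called. It had 7.60, 7.62, 8.0 and 7.85 on Mock and 6.97, 7.15, 7.09 and 7.51 on IL-12TD arrays at day 3, a difference of -0.59 (SE 0.13, adjusted p = 6.18e-04) that became -0.28 and was not called after quantile normalization. At day 7 it had 6.79, 6.55, 6.24 and 6.60 on Mock and 6.92, 6.88, 7.15 and 6.92 on IL-12TD arrays, a difference of 0.43 (SE 0.13, adjusted p = 0.0171). The arms did not overlap on either day, and the day 7 call was lost without Mock replicate 3 (0.33) or IL-12TD replicate 3 (0.37) of day 7. The untreated arrays at day 7 had 6.72, 6.62, 6.69 and 6.69, below all 4 IL-12TD arrays, and that difference of 0.29 (SE 0.13, adjusted p = 0.117) was not called.

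Rfc4 showed the largest difference of the loader at day 3. It had 7.97, 7.94, 8.46 and 8.63 on Mock and 6.88, 6.79, 7.18 and 7.12 on IL-12TD arrays, a difference of -1.26 (SE 0.22, adjusted p = 6.5e-05), and 5.87, 6.41, 6.20 and 6.02 on Mock and 5.84, 5.50, 5.78 and 5.97 on IL-12TD arrays at day 7. Its arms overlapped at day 7, after the largest falls between days of any member, -2.13 in Mock and -1.22 in IL-12TD tumours. Rfc1, the large subunit, had 7.12, 6.84, 7.06 and 7.23 on Mock and 6.22, 6.50, 5.97 and 6.49 on IL-12TD arrays at day 3 and 6.79, 6.29, 6.47 and 6.30 on Mock and 6.81, 6.53, 6.70 and 6.83 on IL-12TD arrays at day 7. It was lower at day 3 (-0.77) and had a difference of 0.26 at day 7 that was not called. Rfc2 and Rfc5 were lower at day 3, with differences of -0.50 and -0.62. Rfc2 was the one called member whose arms overlapped, and its call was lost after quantile normalization (-0.19), without IL-12TD day 3 replicate 1 (-0.37) and without IL-12TD day 3 replicate 4 (-0.38).

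Rpa1, the large subunit of the single-strand binding protein, had 7.52, 7.60, 7.53 and 7.71 on Mock and 7.02, 6.71, 6.65 and 6.71 on IL-12TD arrays at day 3 and 6.96, 6.50, 6.39 and 6.60 on Mock and 6.66, 6.45, 6.49 and 6.41 on IL-12TD arrays at day 7. It was lower at day 3 (-0.82, SE 0.12) and overlapped at day 7. Lig1, which seals Okazaki fragments, had 7.42, 7.43, 7.55 and 7.48 on Mock and 5.97, 6.43, 6.09 and 6.49 on IL-12TD arrays at day 3 and 7.0, 6.85, 6.91 and 6.42 on Mock and 6.59, 6.38, 6.29 and 6.36 on IL-12TD arrays at day 7. The day 3 arms were nearly a log2 unit apart at their nearest arrays, and the differences were -1.23 (SE 0.13, adjusted p = 2.51e-08) and -0.39 (SE 0.13, adjusted p = 0.0262). The day 7 call of Lig1 was lost without Mock replicate 1, 2 or 3 or IL-12TD replicate 3 or 4 of that day, at -0.38 to -0.32. Rnaseh2a, which removes ribonucleotides from DNA, had 7.47, 7.41, 7.49 and 7.42 on Mock and 6.91, 7.05, 7.12 and 6.73 on IL-12TD arrays at day 3 and 6.80, 6.69, 6.71 and 6.70 on Mock and 6.72, 6.81, 6.72 and 6.57 on IL-12TD arrays at day 7. It gave the smallest day 3 difference of this role, -0.49, which was -0.17 and not called after quantile normalization. Rpa2 and Fen1 were lower at day 3, at -0.68 and -1.13, and not called at day 7.

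Nucleotide synthesis had the largest median difference of the roles at day 3. Rrm2, Tyms and Dut were called on both days, and Tk1 for only 1 of its 2 probesets at day 7. Rrm2, the small subunit of ribonucleotide reductase that limits its activity in S phase, had 9.63, 9.95, 9.94 and 9.95 on Mock and 8.31, 8.18, 8.09 and 8.50 on IL-12TD arrays at day 3. At day 7 it had 8.60, 8.51, 8.10 and 7.98 on Mock and 7.88, 7.67, 7.91 and 7.68 on IL-12TD arrays. The arms were apart on both days, at -1.60 (SE 0.16, adjusted p = 1.16e-08) and -0.51 (SE 0.16, adjusted p = 0.0206), and the later call was lost without Mock replicate 1 or 2 or IL-12TD replicate 4 of day 7, at -0.47 to -0.41. Rrm1, the large subunit, had 9.0, 9.33, 9.17 and 9.45 on Mock and 7.95, 7.67, 7.53 and 7.59 on IL-12TD arrays at day 3 and 7.64, 7.32, 7.17 and 7.15 on Mock and 7.55, 6.77, 7.28 and 7.11 on IL-12TD arrays at day 7. Its arms were over a log2 unit apart at day 3, at -1.55 (SE 0.17, adjusted p = 9.6e-08), and overlapped at day 7, at -0.14. Rrm1 fell by 1.92 on the log2 scale between the days in Mock tumours and by 0.51 in IL-12TD tumours, and the second fall lost its call without IL-12TD replicate 1 of day 3 (-0.42) or replicate 2 of day 7 (-0.37).

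Tyms, which makes thymidylate, had 8.43, 8.53, 8.60 and 8.57 on Mock and 6.95, 6.93, 7.27 and 7.17 on IL-12TD arrays at day 3 and 7.71, 7.75, 7.37 and 7.03 on Mock and 7.04, 6.42, 6.86 and 6.58 on IL-12TD arrays at day 7. The differences were -1.46 (SE 0.14, adjusted p = 1.48e-08) and -0.74 (SE 0.14, adjusted p = 4.11e-04), and at day 7 1 IL-12TD array lay just above the lowest Mock array. Dut, which removes dUTP, had 6.86, 6.96, 7.09 and 6.99 on Mock and 6.28, 6.05, 6.60 and 6.46 on IL-12TD arrays at day 3 and 6.56, 6.49, 6.30 and 6.16 on Mock and 5.93, 5.78, 6.04 and 5.90 on IL-12TD arrays at day 7. Its arms were apart on both days, at -0.63 and -0.46, and the day 3 call was lost after quantile normalization (-0.32).

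Tk1, thymidine kinase, rests on a probeset of doubtful origin. The brighter of its 2 probesets, used here, had 7.99, 8.20, 8.24 and 8.27 on Mock and 6.36, 6.81, 6.93 and 7.07 on IL-12TD arrays at day 3 and 8.08, 7.66, 8.47 and 7.13 on Mock and 7.57, 6.93, 6.82 and 6.79 on IL-12TD arrays at day 7. It was lower on both days, at -1.39 (SE 0.21, adjusted p = 7.01e-06) and -0.81 (SE 0.21, adjusted p = 0.00532), with overlap at day 7. Of the 20 probesets nearest in number to it, 14 are of genes on chromosome 8 and 0 on chromosome 11, where Tk1 lies. The 20 nearest the dimmer probeset are all of genes on chromosome 11, and that probeset gave -1.67 (adjusted p = 5.77e-07) at day 3 and -0.27 (adjusted p = 0.350) at day 7. The day 3 call therefore holds for both probesets and the day 7 call for 1 of them.

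Cyclin E, which with Cdk2 starts S phase, is encoded by Ccne1 and Ccne2. Ccne1 had 8.33, 8.28, 8.40 and 8.57 on Mock and 7.38, 7.02, 7.09 and 7.11 on IL-12TD arrays at day 3 and 7.99, 7.48, 7.55 and 6.74 on Mock and 7.27, 7.04, 7.20 and 7.06 on IL-12TD arrays at day 7. It was lower at day 3, at -1.24 (SE 0.17, adjusted p = 2.18e-06), and at day 7 Mock replicate 4 lay below all IL-12TD arrays while the other Mock arrays lay above them. Ccne2 had 6.42, 6.37, 6.77 and 6.43 on Mock and 5.60, 5.27, 5.48 and 5.39 on IL-12TD arrays at day 3 and 5.38, 5.18, 5.14 and 4.68 on Mock and 5.15, 4.82, 4.88 and 5.06 on IL-12TD arrays at day 7. It was lower at day 3 (-1.06) and overlapped at day 7 (-0.12).

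E2f1, an activator of many of these genes, was lower on both days. It had 7.33, 7.38, 7.50 and 7.33 on Mock and 6.51, 6.54, 6.39 and 6.26 on IL-12TD arrays at day 3, and 7.58, 7.40, 7.42 and 6.88 on Mock and 6.80, 6.63, 6.51 and 6.29 on IL-12TD arrays at day 7. The arms did not overlap on either day, with differences of -0.96 (SE 0.14, adjusted p = 3.57e-06) and -0.76 (SE 0.14, adjusted p = 1.53e-04), and the change between the 2 differences was 0.20 (SE 0.19, adjusted p = 0.395). E2f1 was not called between days in any arm, with -0.10, -0.07 and 0.14 in untreated, Mock and IL-12TD tumours.

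In chromatin assembly and methylation, Uhrf1 guides the methyltransferase Dnmt1 to newly made DNA. Uhrf1 had 7.49, 7.44, 7.33 and 7.69 on Mock and 6.28, 6.41, 5.80 and 5.95 on IL-12TD arrays at day 3 and 7.21, 7.06, 7.11 and 6.72 on Mock and 6.51, 6.27, 6.32 and 6.09 on IL-12TD arrays at day 7. The arms were apart on both days, at -1.38 (SE 0.13, adjusted p = 1.16e-08) and -0.73 (SE 0.13, adjusted p = 2.13e-04). Dnmt1 had 8.15, 8.41, 8.07 and 8.50 on Mock and 7.68, 7.53, 7.24 and 7.47 on IL-12TD arrays at day 3 and 8.06, 8.07, 8.01 and 7.96 on Mock and 7.75, 7.88, 7.77 and 7.98 on IL-12TD arrays at day 7. It was lower at day 3 (-0.80) and overlapped at day 7, where the difference was -0.18.

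Chaf1a and Chaf1b are subunits of the factor that places histones behind the fork. Chaf1a had 6.53, 6.75, 6.50 and 6.58 on Mock and 5.69, 5.98, 5.72 and 5.77 on IL-12TD arrays at day 3 and 6.80, 6.99, 7.18 and 6.68 on Mock and 6.26, 6.22, 6.19 and 6.06 on IL-12TD arrays at day 7. No arrays overlapped on either day, and the differences of -0.80 (SE 0.13, adjusted p = 2.52e-05) and -0.73 (SE 0.13, adjusted p = 1.53e-04) were of like size, with a change of 0.07 (SE 0.18). Chaf1b was lower on both days too, at -1.25 (SE 0.12, adjusted p = 6.81e-09) and -0.48 (SE 0.12, adjusted p = 0.00447), without overlap.

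**Figure D3:**
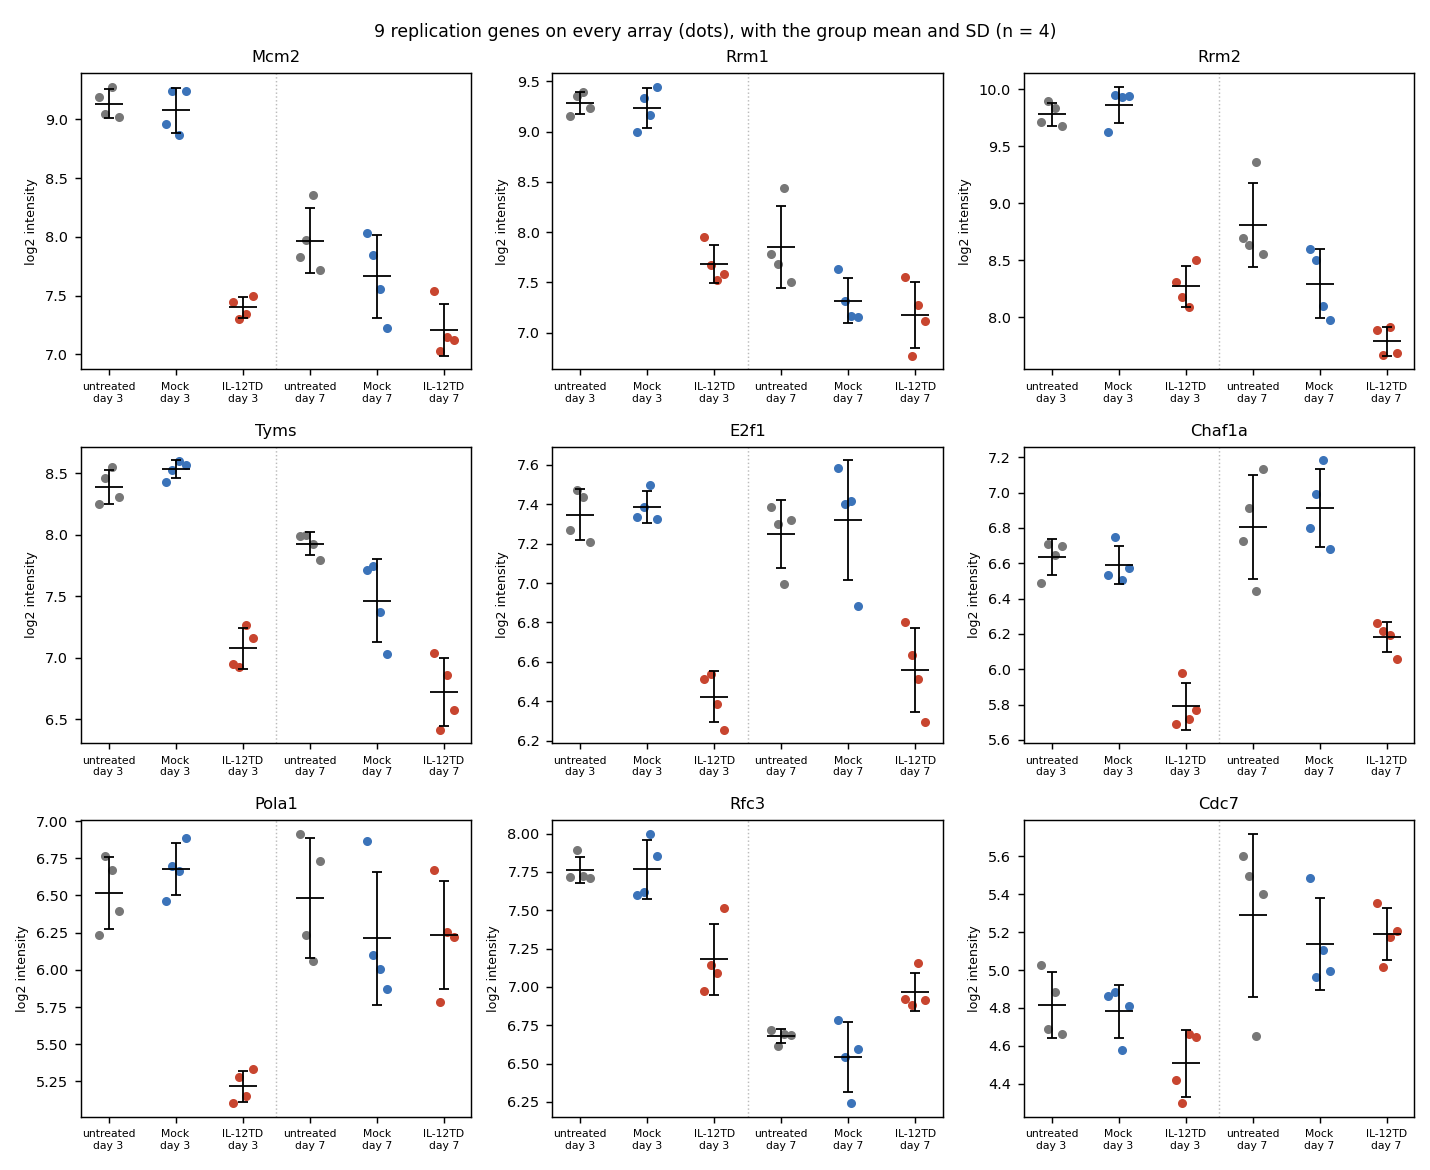
Log2 intensity of 9 members on each array (dots) by group, with the group mean and SD over 4 arrays (bars). Mcm2, Rrm1 and Rrm2 are low in IL-12TD tumours at day 3 and in all arms at day 7, E2f1 and Chaf1a are low in IL-12TD tumours alone on both days, Pola1 and Cdc7 are at their lowest mean in IL-12TD tumours at day 3, and Rfc3 is higher in IL-12TD than in Mock tumours at day 7.

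Mock tumours, for which the labels name irradiation and unmodified T cells, did not differ in any call from untreated tumours, for which they name neither. At day 3, limma called 0 of 48 members and 0 of 19938 genes (0%), and 0 members and 329 genes had an unadjusted p under 0.05. The median over the members was -0.01, and the arms did not overlap for 1 member, Fen1, which was higher in Mock (0.627% of all genes), and for 0 members that were lower (0.968%). At day 7, 0 members and 0 genes were called, while 17 members and 2767 genes had an unadjusted p under 0.05. There the median was -0.25, beside 0.03 over all genes, and 44 of 48 members had a negative difference. For 6 of them (Mcm3, Mcm5, Gins4, Rfc2, Rpa2 and Tyms) all Mock arrays lay below all untreated arrays, against 1.25% of all genes. Tyms had 7.99, 8.0, 7.93 and 7.80 on untreated arrays at day 7, beside the Mock values of 7.71, 7.75, 7.37 and 7.03, a difference of -0.46 (SE 0.14, adjusted p = 0.229). The alternatives gave 0 member calls at day 3, and at day 7 they gave 0 with the exception of 1, Pole2 at -0.69 (adjusted p = 0.0407), when untreated replicate 3 and Mock replicate 1 were both left out.

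Against untreated tumours, for which the labels name no irradiation, IL-12TD tumours had 47 members lower and 0 higher at day 3, against 25.8% and 16.1% of all genes (41.9% in either direction), with a median of -0.95. The same 47 members were lower than in Mock tumours. Among the genes left after the filter on dim genes, 39% were lower and 13.2% higher than in untreated tumours at day 3. At day 7, 32 members were lower and 0 higher, against 8.61% and 11.8% of all genes (20.4% in either direction), with a median of -0.47. The count of calls at day 7 was 22 to 30 as single arrays were left out, when 15.9% to 21.1% of all genes were called. All IL-12TD arrays lay below all untreated arrays for 46 members at day 3 (24% of all genes) and for 28 members at day 7 (9.96% of all genes). Of the 32 called at day 7, 13 were also lower than in Mock tumours and 19 were not called against Mock. The 2 comparisons share the IL-12TD arrays. After quantile normalization 41 members were lower at day 3, against 16.4% of all genes. There Gins2 (-0.22), Gins4 (-0.37), Pcna (-0.36), Rfc2 (-0.30), Rfc3 (-0.28), Rnaseh2a (-0.27) and Dut (-0.22) lost their call and Cdc7 (-0.47) gained one. At day 7, 36 were lower after quantile normalization, against 12.3% of all genes, with Mcm4 (-0.45), Orc1 (-0.40), Prim1 (-0.58) and Pole (-0.56) gained. Tyms gave the largest of these day 7 differences, -1.21 (SE 0.14), followed by Rfc4 at -1.09 and Rrm2 at -1.03. With arrays centred on their median, 39.3% of the calls over all genes in the day 7 comparison were higher and 45.4% after quantile normalization, against 57.8% as deposited. The centred values have a median over all genes of -0.11, against -0.02 as deposited, and member differences should be read relative to it.

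Between day 3 and day 7 most replication genes fell in the arms without IL-12. In untreated tumours 35 members fell and 1 rose, against 24.2% and 11.3% of all genes, with a median of -0.65. The days did not overlap for 29 members that were lower at day 7 (20.1% of all genes) and for 0 that were higher (9.04%). In Mock tumours 41 fell and 1 rose, against 27.1% and 23.8% of all genes (50.9% in either direction), with a median of -0.91. There 39 members did not overlap in the lower direction (23.2% of all genes) and 1, Cdc7, in the higher (20.1%). Among the genes left after the filter on dim genes, 36.6% fell and 12.6% rose in untreated tumours, and 40.3% and 22.1% in Mock tumours. The largest falls in Mock tumours were those of Rfc4 (-2.13), Rrm1 (-1.92), Rrm2 (-1.57), Gins4 (-1.57) and Mcm4 (-1.55), and 35 members fell in both arms. Chaf1a was the member that rose in Mock tumours, at 0.32 (SE 0.13, adjusted p = 0.0409). That call was lost with arrays centred on their median (0.26), without Mock day 3 replicate 1, 3 or 4 and without Mock day 7 replicate 2 or 3, at 0.23 to 0.32. After quantile normalization the medians were -0.41 in untreated and -0.56 in Mock tumours, with 27 and 35 calls. Of these calls 26 and 34 were lower, against 14.5% and 19.1% of all genes called lower. In untreated tumours Mcm10 (-0.27), Gins2 (-0.15), Orc6 (-0.11), Cdc7 (0.41), Prim1 (-0.42), Rfc2 (-0.14), Rpa2 (-0.05), Tyms (-0.14), Dut (-0.10) and Uhrf1 (-0.24) were then not called, and Chaf1a (0.40) was. In Mock tumours Mcm10 (-0.14), Cdc45 (-0.29), Gins2 (-0.19), Pola2 (-0.17), Rfc2 (-0.33), Dut (-0.32) and Uhrf1 (-0.09) were then not called. Over all genes, 46.2% of the calls in untreated tumours were higher after quantile normalization against 31.8% as deposited. In Mock tumours 36.9% were higher after centring against 46.8%.

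In IL-12TD tumours 11 members fell and 9 rose between the days, against 21.6% and 20.2% of all genes (41.8% in either direction). In the deposited values the shares were thus near those over all genes. The median was -0.11, with -0.14 to -0.06 as single arrays were left out, -0.19 after quantile normalization and -0.20 with arrays centred on their median. The 9 that rose were Pola1 (1.02), Cdc7 (0.68), Pold1 (0.56), Pola2 (0.53), Cdt1 (0.47), Rfc1 (0.42), Mcm10 (0.41), Chaf1a (0.39) and Dnmt1 (0.37). They include 3 of the 8 polymerase and primase genes, while Pold2 of the same role was among those that fell. With 20.2% of all genes rising, a count from so small a role is not read as a result. The 11 that fell were Rfc4 (-1.22), Pold2 (-0.94), Gins4 (-0.82), Pcna (-0.55), Rrm1 (-0.51), Rrm2 (-0.48), Ccne2 (-0.46), Mcm4 (-0.45), Mcm7 (-0.44), Dut (-0.43) and Mcm5 (-0.36). All 11 also fell in Mock tumours, and 4 members that rose in IL-12TD tumours fell in Mock tumours (Pola2, Cdt1, Rfc1 and Mcm10), of which Pola2 and Mcm10 were not called in Mock tumours after quantile normalization. After quantile normalization 17 fell and 8 rose, against 21.9% and 19.6% of all genes, so the share that fell was above that over all genes. In that setting Mcm3 (-0.42), Rfc3 (-0.31), Rpa1 (-0.40), Fen1 (-0.46), Rnaseh2a (-0.37) and Tyms (-0.47) gained a call and Chaf1a (0.29) lost its own. With arrays centred on their median 15 fell and 7 rose, against 28.9% and 16.9% of all genes. There Rpa1 (-0.35), Fen1 (-0.44), Rnaseh2a (-0.34) and Tyms (-0.44) gained a call and Chaf1a (0.31) and Dnmt1 (0.28) lost theirs. The rise of Dnmt1 was also lost without IL-12TD day 3 replicate 3, as was that of Rfc1 (0.32). Among the falls, those of Mcm4, Mcm5, Mcm7, Rrm1, Rrm2 and Ccne2 lost their call without some single IL-12TD array. Centring gave a median over all genes of -0.14 in this comparison and 36.9% of calls higher, against 48.4% as deposited.

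**Figure D4:**
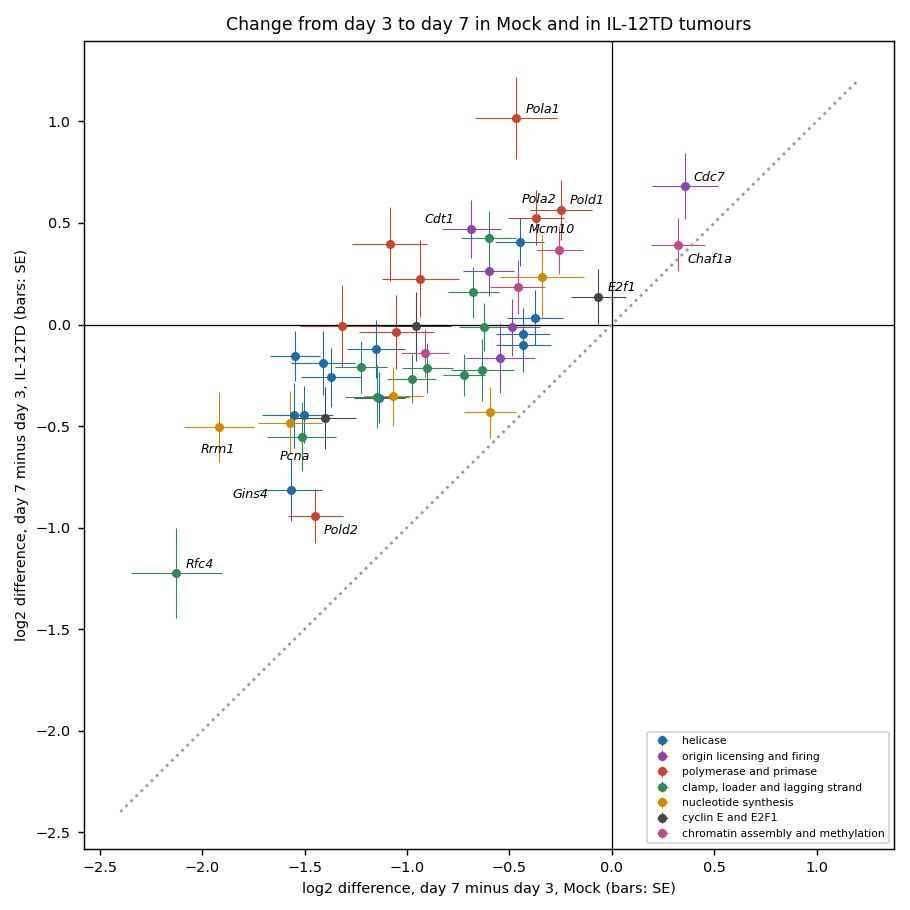
Log2 difference between day 7 and day 3 for the 48 genes in Mock tumours (horizontal axis) and in IL-12TD tumours (vertical axis), coloured by role, with bars for the standard error and a dotted line of equal change. All 48 points lie above the line, with Pola1 highest and Rfc4 lowest.

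The change in the treatment difference between the days was tested directly, as IL-12TD minus Mock at day 7 less the same at day 3. It was called for 37 members, all positive, against 24.1% of all genes positive and 18.4% negative, and the median was 0.82, beside -0.06 over all genes. The largest was that of Pola1, 1.48 (SE 0.28, adjusted p = 3.22e-04), followed by Pole (1.48), Rrm1 (1.41), Mcm6 (1.39) and Pole2 (1.31), and all 8 polymerase and primase genes were called. The 11 not called were Cdc45, Gins2, Gins3, Orc1, Cdc6, Cdc7, Rfc2, Tk1, Dut, E2f1 and Chaf1a. After quantile normalization 21 members were called and the median was 0.45, with 17 calls lost and that of Orc1 (0.73) gained. The values of the members not called there were 0.28 for Mcm5, 0.31 for Gins4, 0.57 for Prim2, 0.37 for Pold1, 0.03 for Pold2, 0.44 for Rfc4, 0.25 for Rfc5, 0.26 for Rpa1 and 0.21 for Rpa2. They were 0.59 for Fen1, 0.37 for Lig1, 0.02 for Rnaseh2a, 0.16 for Tyms, 0.42 for Ccne1, 0.32 for Chaf1b, 0.17 for Uhrf1 and 0.11 for Dnmt1.

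The lists that follow are of other genes of the cycle and of cell type markers, and their counts stand beside 25.9% of all genes lower and 17.3% higher at day 3, and 8.83% lower and 12.9% higher at day 7. Of 23 mitosis genes measured, 23 were lower in IL-12TD than in Mock tumours at day 3, with a median of -1.42, and 17 were lower and 0 higher at day 7, with a median of -0.56. Anln, which builds the contractile ring, gave -2.24 (SE 0.15, adjusted p = 5.56e-12) at day 3, and Cdc20, the activator of anaphase, -1.0 (SE 0.15, adjusted p = 1.96e-05) at day 7. Mki67, the usual marker of proliferation, was lower on both days, at -1.44 (adjusted p = 4.37e-08) and -0.71 (adjusted p = 0.00116).

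Other replication and repair-fork genes, 35 measured, had 28 lower and 0 higher at day 3 (median -0.80), and 3 lower and 5 higher at day 7 (median -0.05), when all genes had 8.83% lower and 12.9% higher, so the day 7 shares were near those over all genes. Fancd2, of the crosslink repair pathway, gave -1.85, and Dbf4, the partner of Cdc7, gave -1.32 at day 3. At day 7 Orc4 and Orc3, subunits of the origin recognition complex, were higher by 0.72 and 0.52, and Recql4, a helicase, had a difference of -0.51.

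Other nucleotide metabolism genes, 31 measured, had 17 lower and 4 higher at day 3 (25.9% and 17.3% of all genes) and 3 lower and 8 higher at day 7 (8.83% and 12.9% of all genes). The 4 higher at day 3 and the 3 lower at day 7 were thus no larger a share, or little larger, than over all genes. Genes of de novo synthesis were among the lower ones at day 3, such as Mthfd1 (-1.17), Cad (-1.35) and Atic (-1.0). Samhd1, which degrades deoxynucleotides and is induced by interferon, went the other way, at 1.35 (SE 0.19, adjusted p = 3.88e-06) and 3.12 (SE 0.19, adjusted p = 2.57e-12). Pnp, of purine salvage, was higher at 1.17 and 1.61, and Rrm2b, the p53-induced subunit of ribonucleotide reductase, was called on neither day (-0.09 and 0.18). Of 27 regulators of G1/S, 15 were lower and 2 higher at day 3 (25.9% and 17.3% of all genes) and 3 lower and 6 higher at day 7 (8.83% and 12.9% of all genes). Skp2, which marks inhibitors for degradation, gave -1.53 at day 3, and the inhibitor genes Cdkn2a and Cdkn2b were higher by 0.68 and 0.43. At day 7 the pocket protein genes Rb1 and Rbl2 were higher, by 1.46 and 1.07.

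Pan-leukocyte and T cell markers were higher in IL-12TD tumours, while 17.3% of all genes were higher at day 3 and 12.9% at day 7. Of 14 pan-leukocyte markers 13 were higher in IL-12TD than in Mock tumours on each day, with medians of 1.49 and 1.35, and their mean level was 7.83 to 8.19 on IL-12TD arrays against 6.43 to 6.85 on Mock arrays at day 3. At day 7 it was 7.44 to 7.92 against 5.95 to 6.72. Of 14 T cell markers 12 were higher at day 3 and 10 at day 7 (medians 2.65 and 1.37). Neutrophil markers were higher at day 3 in 9 of 13 (median 1.03) and in 1 of 13 at day 7, and macrophage and monocyte markers in 3 of 14 and 7 of 14. Melanocyte lineage genes, which mark the tumour cells, had 11 of 15 lower at day 3 (median -0.57) and 1 lower and 1 higher at day 7 (median 0.19), with a mean level of 8.98 to 9.18 on IL-12TD and 9.59 to 9.71 on Mock arrays at day 3. At day 7 these melanocyte means were 9.15 to 9.60 and 8.88 to 9.85, the highest being that of Mock replicate 1. Endothelial markers had 5 lower and 2 higher of 12 at day 3, fibroblast and matrix genes 3 and 2 of 12, and erythroid genes 1 and 0 of 8. At day 7 the counts were 3 and 1, 2 and 3, and 3 and 0. With 25.9% of all genes lower and 17.3% higher at day 3, and 8.83% and 12.9% at day 7, the counts of these small lists are not read as a result. The part of these cells in the differences of the replication genes was not tested.

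**Figure D5:**
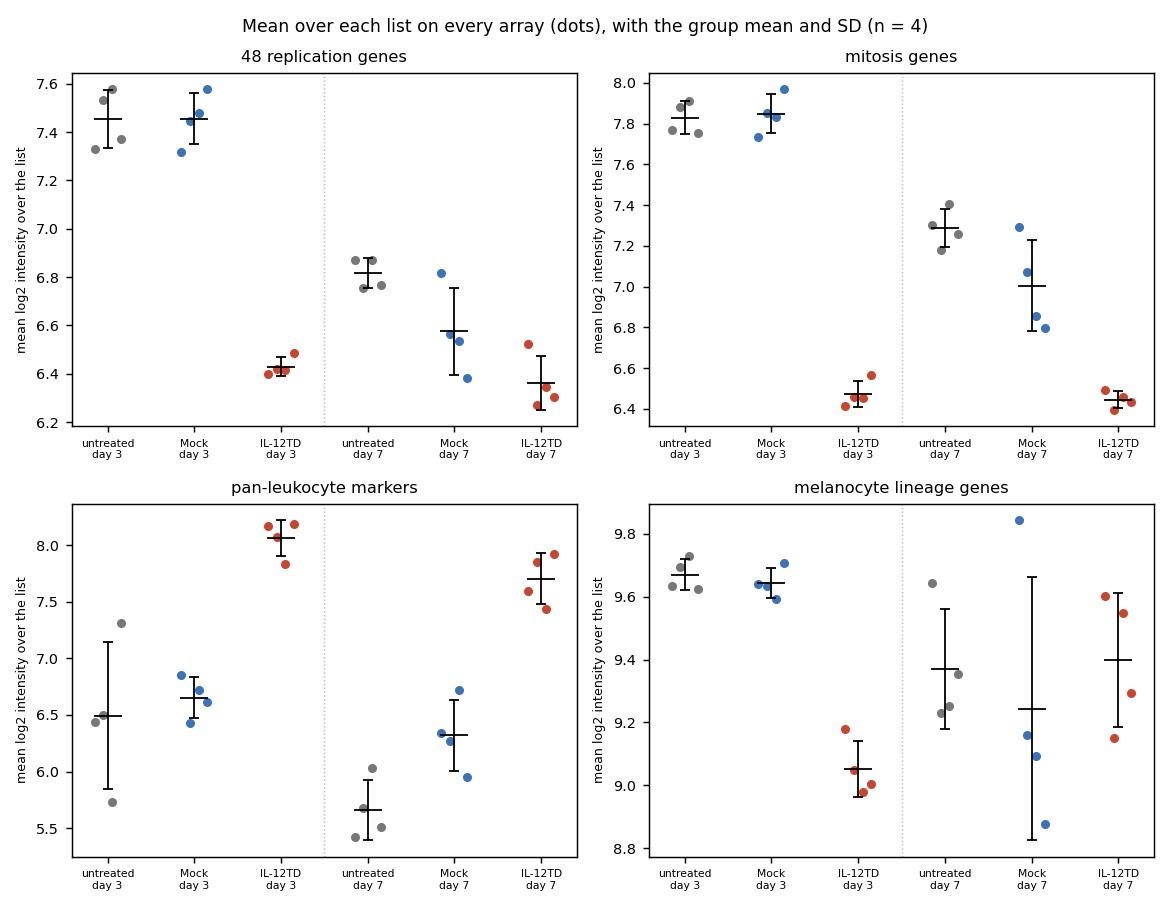
Mean log2 intensity over the 48 replication genes, 23 mitosis genes, 14 pan-leukocyte markers and 15 melanocyte lineage genes on each array (dots), with the group mean and SD over 4 arrays. The replication and mitosis means are lowest in both IL-12TD groups, leukocyte means are highest there, and the melanocyte mean is lowest in IL-12TD tumours at day 3 and spread widely in Mock tumours at day 7.

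Averaged over the 48 members, the level on single arrays was 7.33 to 7.58 in untreated and 7.32 to 7.58 in Mock tumours at day 3 and 6.40 to 6.49 in IL-12TD tumours. At day 7 it was 6.76 to 6.87, 6.38 to 6.82 and 6.27 to 6.52. The lowest group mean was in IL-12TD tumours at day 7 for 26 members, in IL-12TD tumours at day 3 for 16 and in Mock tumours at day 7 for 6. Across the 24 arrays, 44 members correlated at 0.7 or more with the mean of the other 47, a description over arrays that share their treatment group. Mcm2 (0.98) and Mcm3 (0.98) were most like the rest, and Cdc7 (-0.17), Chaf1a (0.39), Pola1 (0.63) and Pcna (0.69) least.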

How the data were processed

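Per the submitters' processing notes, the deposited values were made by the authors with RMA, and they are log2 intensities per probeset as judged from their range (1.009 to 14.367). Software version and whether all 24 arrays were normalized together are not given in the sources used here. Of 35556 probesets, 21789 list 1 gene on the platform table and were kept, 1621 list several genes and 12146 none. A gene with several probesets was read from its brightest one by mean level, which left 19938 genes.

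The test was limma (version 3.58.1, R 4.3.3), with a mean per group over all 24 arrays (lmFit and eBayes), two-sided, and Benjamini-Hochberg adjustment over all genes. SE is that of the model, and n = 4 arrays per group limits the precision. The procedure was tested on simulated data. The labels call the replicates biological and do not say which animals they came from.

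The members, the gene lists and the rule for named genes were chosen with earlier results of these data known, so counts over them are descriptions. Every member could be named. Array values were given for 23 members set by name and for the largest and smallest difference of each role on each day, and from other lists the 3 smallest adjusted p-values of either direction and a few fixed genes could be named. Of these, Cdkn1a had no single-gene probeset. Alternatives were quantile normalization, median centring, a filter on dim genes, another prior, array weights, a fit of the compared groups alone, a replicate block, averaged probesets, and each array left out. Leaving out untreated day 7 replicate 3 and Mock day 7 replicate 1 together was chosen after seeing the data.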

Additional observations from a re-analysis of the deposited data

Results flagged for a closer look

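In 17 of 294 screened groups of 4 arrays, the highest or lowest value stood apart from the other 3 arrays by more than Dixon's critical value for 4 samples, where chance gives about 1 in 20 groups (14.7 here). Among the untreated day 7 arrays the log2 level was 7.08 in replicate 3 for Mcm4 and 9.73 in replicate 3 for Pcna. Among the IL-12TD day 7 arrays the log2 level was 7.33 in replicate 1 for Mcm6 and 7.15 in replicate 3 for Rfc3. Among the Mock day 3 arrays the log2 level was 8.65 in replicate 1 for Mcm7, 7.03 in replicate 1 for Rpa2, 9.63 in replicate 1 for Rrm2 and 6.77 in replicate 3 for Ccne2. Among the Mock day 7 arrays the log2 level was 6.22 in replicate 2 for Orc6, 6.61 in replicate 1 for Prim1, 6.43 in replicate 4 for Pold1, 6.45 in replicate 1 for Pole, 6.66 in replicate 3 for Rfc2 and 6.33 in replicate 4 for Rpa2. Among the untreated day 3 arrays the log2 level was 9.89 in replicate 1 for Pcna and 7.89 in replicate 2 for Rfc3. Among the IL-12TD day 3 arrays the log2 level was 7.02 in replicate 1 for Rpa1. Mock day 7 replicate 1 was the high array for Prim1 and Pole, with the other Mock arrays at 5.70 to 5.81 and 5.53 to 5.60.

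The difference between IL-12TD and Mock tumours itself differed between day 7 and day 3 for 37 members (limma, adjusted over all genes), each time in the positive direction. In helicase the log2 change was 1.22 for Mcm2, 1.11 for Mcm3, 1.10 for Mcm4, 0.78 for Mcm5, 1.39 for Mcm6, 1.06 for Mcm7, 0.86 for Mcm10, 1.03 for Gins1 and 0.75 for Gins4. In origin licensing and firing the log2 change was 0.87 for Orc6 and 1.16 for Cdt1. In polymerase and primase the log2 change was 1.48 for Pola1, 0.90 for Pola2, 1.16 for Prim1, 1.02 for Prim2, 0.81 for Pold1, 0.51 for Pold2, 1.48 for Pole and 1.31 for Pole2. In clamp, loader and lagging strand the log2 change was 0.96 for Pcna, 1.02 for Rfc1, 1.01 for Rfc3, 0.90 for Rfc4, 0.69 for Rfc5, 0.71 for Rpa1, 0.61 for Rpa2, 0.79 for Fen1, 0.84 for Lig1 and 0.47 for Rnaseh2a. In nucleotide synthesis the log2 change was 1.41 for Rrm1, 1.09 for Rrm2 and 0.71 for Tyms. In cyclin E and E2F1 the log2 change was 0.94 for Ccne1 and 0.94 for Ccne2. In chromatin assembly and methylation the log2 change was 0.77 for Chaf1b, 0.64 for Uhrf1 and 0.62 for Dnmt1.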

How the results depend on the processing

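No member value that was called changed sign under any alternative. The number of members called kept within 1.5 times of the reported number in every comparison except 3. For IL-12TD against Mock at day 7 it was 14 and ran from 9 to 17 as single arrays were left out, and 8 of these 14 members were called under all alternatives. For Mock against untreated at day 7 it was 0, and 1 with untreated replicate 3 and Mock replicate 1 left out together. For the change of the IL-12TD difference between days it was 37, and 21 after quantile normalization. Over single arrays left out, the counts ran from 45 to 47 for IL-12TD against Mock at day 3, from 46 to 47 and 22 to 30 against untreated at days 3 and 7, from 30 to 37, 39 to 43 and 17 to 21 for time in untreated, Mock and IL-12TD tumours, and from 35 to 40 for the change of the difference. For each replicate number, deviations from the group means correlated over 0.1 in 2 to 7 of 15 pairs of groups. The median correlation was -0.06 to -0.01 over the numbers, and the highest was 0.52, for number 1. Pairing by number was not tested beyond a block. With the replicate number as a block the counts were 47 and 14 against Mock and 47 and 32 against untreated. They were 37, 42 and 21 over time and 37 for the change of the difference. With 4 arrays a group and no counts, precision rests on the number of arrays. Day and batch cannot be told apart, and the irradiation and the T cells of the Mock arm cannot be told apart either. Tk1 differs between its probesets at day 7. Why quantile normalization lowers the count of changes between days was not tested.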
